A study of Mus musculus with 12 samples.

Results

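Neutrophil granule protein genes were followed through ATAC-seq, which reads out open chromatin from where the Tn5 enzyme can reach and tag the DNA. The 10 genes were Mpo, Elane, Prtn3, Ctsg, Ms4a3, Ngp, Camp, Ltf, Fcnb and Lyz2. An accessible region belonged to a gene if it overlapped that gene's protein-coding RefSeq body (GRCm38), or if that body was the nearest one within 100 kb. This gave 48 of the 188262 regions in the table, and all 48 passed the filter on low counts. Regions are numbered below along each gene, from the farthest upstream to the farthest downstream. Assignment is by position alone and is not evidence of regulation.

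The 12 libraries came from multipotent progenitors (MPP), the early descendants of stem cells, and from long-term stem cells of the blood (LT-HSC), which keep blood formation going. KO mice carried a deleted X-linked Phf6 allele and a tamoxifen-activated Cre recombinase at the Rosa26 locus (Phf6-/Y Rosa26+/Cre-ERT2), and WT mice lacked Cre and had the floxed allele intact (Phf6f/Y Rosa26+/+). Each of the 4 groups, KO MPP, WT MPP, KO LT-HSC and WT LT-HSC, held 3 libraries. The labels describe 20000 sorted LT-HSC from individual mice taken 8 weeks after tamoxifen. The labels and design text used here describe neither the sort of MPP nor whether MPP and LT-HSC came from the same mice. All KO libraries and no WT library carry Cre-ERT2, so its effect and that of Phf6 loss cannot be told apart. Total counts ran from 22665988 to 48547234 per library.

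Neutrophil granules form in successive waves as a granulocyte precursor matures. Primary (azurophil) granules come first, at the promyelocyte stage, and hold myeloperoxidase, the enzyme made from Mpo that turns peroxide into hypochlorous acid, and the serine proteases neutrophil elastase (Elane), proteinase 3 (Prtn3) and cathepsin G (Ctsg). Secondary and tertiary granules come later and hold lactoferrin (Ltf), the iron-binding protein, and cathelicidin (Camp), an antimicrobial peptide precursor. Transcription from these genes is driven by PU.1 and factors of the C/EBP, RUNX and MYB families. Mpo is also known from early progenitors, where low transcription of it marks priming towards the granulocyte and monocyte fate before any granule is made.

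Promoters were read from RefSeq (GRCm38.p6, 250 bases before to 50 bases after the gene start) for all 10 genes, because 8 of the 48 regions cover a gene start. The 6 shown here are 4 whose start region differed in accessibility between the populations and 2 whose start region was open in both. They lie at chr11:87793534-87793833 (Mpo, plus strand), chr10:79886062-79886361 (Elane, plus strand), chr14:56102525-56102824 (Ctsg, minus strand), chr19:11640802-11641101 (Ms4a3, minus strand), chr9:111019042-111019341 (Ltf, plus strand) and chr10:117282223-117282522 (Lyz2, minus strand). Each is written 5′ to 3′ on the gene's strand. Capitals mark GGAAGT, a core bound by PU.1 and other ETS factors, or ACTTCC, the same core on the other strand.
Mpo: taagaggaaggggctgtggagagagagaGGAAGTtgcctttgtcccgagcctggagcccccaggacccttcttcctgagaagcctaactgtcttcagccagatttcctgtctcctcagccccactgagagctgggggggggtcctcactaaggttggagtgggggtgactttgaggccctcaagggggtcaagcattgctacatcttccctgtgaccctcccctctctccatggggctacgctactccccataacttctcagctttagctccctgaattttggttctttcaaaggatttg
Elane: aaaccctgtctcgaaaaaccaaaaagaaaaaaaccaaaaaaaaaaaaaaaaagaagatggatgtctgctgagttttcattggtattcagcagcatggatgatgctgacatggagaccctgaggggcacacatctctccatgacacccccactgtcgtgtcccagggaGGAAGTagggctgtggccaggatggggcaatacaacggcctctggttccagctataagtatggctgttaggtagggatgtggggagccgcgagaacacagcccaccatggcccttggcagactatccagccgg
Ctsg: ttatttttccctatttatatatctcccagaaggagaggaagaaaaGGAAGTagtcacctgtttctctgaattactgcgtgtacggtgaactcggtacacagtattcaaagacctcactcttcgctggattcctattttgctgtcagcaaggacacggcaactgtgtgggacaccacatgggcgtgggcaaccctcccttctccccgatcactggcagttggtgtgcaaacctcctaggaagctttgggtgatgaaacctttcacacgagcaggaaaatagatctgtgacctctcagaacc
Ms4a3: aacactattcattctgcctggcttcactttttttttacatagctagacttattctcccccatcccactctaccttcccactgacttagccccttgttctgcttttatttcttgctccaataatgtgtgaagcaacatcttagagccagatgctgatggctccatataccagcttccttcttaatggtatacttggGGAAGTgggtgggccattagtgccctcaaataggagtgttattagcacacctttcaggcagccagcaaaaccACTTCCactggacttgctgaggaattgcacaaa
Ltf: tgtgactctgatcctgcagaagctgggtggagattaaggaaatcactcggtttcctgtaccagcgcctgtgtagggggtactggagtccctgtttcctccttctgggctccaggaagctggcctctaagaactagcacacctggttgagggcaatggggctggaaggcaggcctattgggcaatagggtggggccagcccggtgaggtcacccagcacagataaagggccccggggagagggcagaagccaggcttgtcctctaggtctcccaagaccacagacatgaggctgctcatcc
Lyz2: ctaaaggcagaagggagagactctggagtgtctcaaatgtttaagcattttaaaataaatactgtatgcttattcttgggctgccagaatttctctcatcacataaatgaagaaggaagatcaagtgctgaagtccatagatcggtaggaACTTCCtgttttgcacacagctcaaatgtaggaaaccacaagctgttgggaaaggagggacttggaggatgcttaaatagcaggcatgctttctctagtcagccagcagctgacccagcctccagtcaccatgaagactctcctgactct

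GGAAGT, searched on both strands, was found in the promoters of 7 of the 10 genes, Mpo, Elane, Prtn3, Ctsg, Ms4a3, Fcnb and Lyz2, and in 24.8% of the 21263 protein-coding promoters of the same length. It lay 222 bases before the start of Mpo, 83 before Elane, 93 before Prtn3 and 205 before Ctsg. Ms4a3 and Fcnb held 2 copies each. The C/EBP-type motif TTGCNNAA was in 4 promoters (Ms4a3, Ngp, Ltf and Fcnb), against 10.2% of all. TGTGGT, the RUNX core, was in 3 (Ctsg, Ltf and Lyz2), against 15% of all, and AACNG, the MYB core, was in 9, against 79.1%. AAATCA, the GFI1 core, and AGATAA, the GATA core, were each in the Ltf promoter alone, against 12.4% and 9.65% of all. The short ETS core GGAA, which every GGAAGT contains, was in all 10 and in 95.7% of all promoters. These are letter matches and do not show binding.

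As a check of the labels, the strongest region of the targeted gene Phf6 (chrX:52912011-52912448) held 27.7 to 29.7 CPM in KO MPP and 30.6 to 32.4 CPM in WT MPP, and 26.5 to 28.8 CPM in KO LT-HSC and 25.4 to 27.3 CPM in WT LT-HSC (adjusted p = 0.195 in MPP and 0.724 in LT-HSC). CPM are counts scaled to library size with TMM factors, so that libraries of different depth can be compared. Of the 10 Phf6 regions 1 was higher and none lower in KO MPP, and none was higher or lower in KO LT-HSC. No Phf6 region was thus called lower in KO. The sources used here do not name the deleted part of Phf6, so these counts do not check the deletion. The populations did differ as their labels say. By counts summed over all regions of a gene, all 10 LT-HSC markers tested (Procr, Hlf, Mecom, Slamf1, Fgd5, Hoxb5, Ctnnal1, Mllt3, Ly6a and Meis1) were lower in MPP in both genotypes. Of 6 MPP markers (Flt3, Cd34, Cd48, Dntt, Satb1 and Cd27), 6 were higher in KO MPP and 5 in WT MPP.

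Most regions of the granule genes were more accessible in MPP than in LT-HSC in both genotypes, while the sole Ngp region was lower, Lyz2 had regions of both kinds and those of Prtn3 moved little. In each genotype 32 of the 48 were higher and 7 lower in MPP than in LT-HSC (edgeR quasi-likelihood F test, Benjamini-Hochberg adjusted p under 0.05 over 186373 regions). Regions higher in MPP made up 66.7% of the 48 in each genotype, while over all tested regions 33.3% were higher in KO and 34.6% in WT. Regions lower in MPP made up 14.6% of the 48, against 34.4% of all in KO and 35.2% in WT. Over all regions 67.7% passed in either direction in KO and 69.8% in WT. The median log2 fold change of the 48 regions was 0.95 in KO and 0.85 in WT, and that of all regions was 0.00 and 0.01. In the 2 genotypes, which share no library, 31 regions were higher in both (64.6% of the 48) and 6 lower in both (12.5%), against 29.6% and 30.8% of all regions. None of the 48 was called in opposite directions, and over all regions 0.0231% were. Under the alternatives 26 to 33 regions were higher and 4 to 8 lower. In bulk libraries, more cells with open DNA at a gene and more open DNA per cell cannot be told apart.

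Mpo opened most at its start. Mpo region 2 (chr11:87793256-87793789) covers the gene start. It held 14.2, 13.6 and 16.5 CPM in the 3 KO MPP libraries, against 2.92, 2.90 and 3.21 CPM in KO LT-HSC. WT MPP held 12.5, 12.1 and 11.3 CPM there, against 2.18, 1.54 and 1.94 CPM in WT LT-HSC. Every MPP library lay above every LT-HSC library, and the log2 fold change was 2.30 ± 0.12 in KO (SE; adjusted p = 3.1e-17) and 2.67 ± 0.12 in WT (adjusted p = 1.82e-18). Mpo region 1, 3.47 kb upstream of the start, held 8.18 ± 0.603 CPM in KO MPP and 3.75 ± 0.366 CPM in KO LT-HSC, and 7.99 ± 1.24 CPM in WT MPP and 4.30 ± 0.044 CPM in WT LT-HSC (SD, n = 3). Its log2 fold changes were 1.13 ± 0.12 and 0.90 ± 0.12. The gene body regions moved less, region 4 by 0.55 ± 0.17 in KO and 0.99 ± 0.16 in WT. Mpo region 3 passed the test at 0.35 ± 0.14 and 0.33 ± 0.14, and both calls were lost with the share of counts at gene ends as a covariate. Both were also lost with DESeq2 (adjusted p = 0.0536 in KO and 0.0572 in WT), and the WT call with total counts alone (adjusted p = 0.0527). The KO call was also lost without KO MPP 1 or 3 or KO LT-HSC 2 or 3, and the WT call without WT MPP 2 or WT LT-HSC 1 or 3 (adjusted p from 0.0607 to 0.156).

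Ctsg showed the steepest difference of the 10 genes, and all 5 of its regions were higher in MPP in both genotypes. The start region (region 2, chr14:56102328-56102828) held 8.85, 8.22 and 10.1 CPM in KO MPP, against 0.743, 0.177 and 0.356 CPM in KO LT-HSC. In WT MPP it held 10.8, 11.1 and 8.29 CPM, against 0.602, 0.365 and 0.463 CPM in WT LT-HSC. Accessibility at the Ctsg start was thus 19.7-fold higher in KO MPP and 21.1-fold higher in WT MPP (log2 fold change 4.30 ± 0.22 and 4.40 ± 0.20). The KO LT-HSC values rest on 27, 5 and 8 reads, and without KO LT-HSC 1 the KO log2 fold change was 5.12 ± 0.27. Region 1, 2.87 kb upstream (chr14:56105031-56105865), differed by 4.47 ± 0.18 and 3.99 ± 0.16. Region 4, 9.03 kb downstream of the start (chr14:56093337-56093744), held 5.65 ± 0.761 CPM in KO MPP and 0.212 ± 0.0423 CPM in KO LT-HSC, and 5.35 ± 0.415 CPM in WT MPP and 0.267 ± 0.0625 CPM in WT LT-HSC, where it rested on 5 to 11 reads per library (4.75 ± 0.23 and 4.31 ± 0.20). Region 3, 3.45 kb downstream, was the most accessible Ctsg region in LT-HSC. It held 8.07, 7.90 and 8.33 CPM in KO MPP, against 2.002 ± 0.0554 CPM in KO LT-HSC (SD, n = 3), and 9.997, 9.69 and 10.6 CPM in WT MPP, against 1.58, 1.94 and 3.01 CPM in WT LT-HSC, and differed by 2.01 ± 0.15 and 2.21 ± 0.14.

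**Figure D1:**
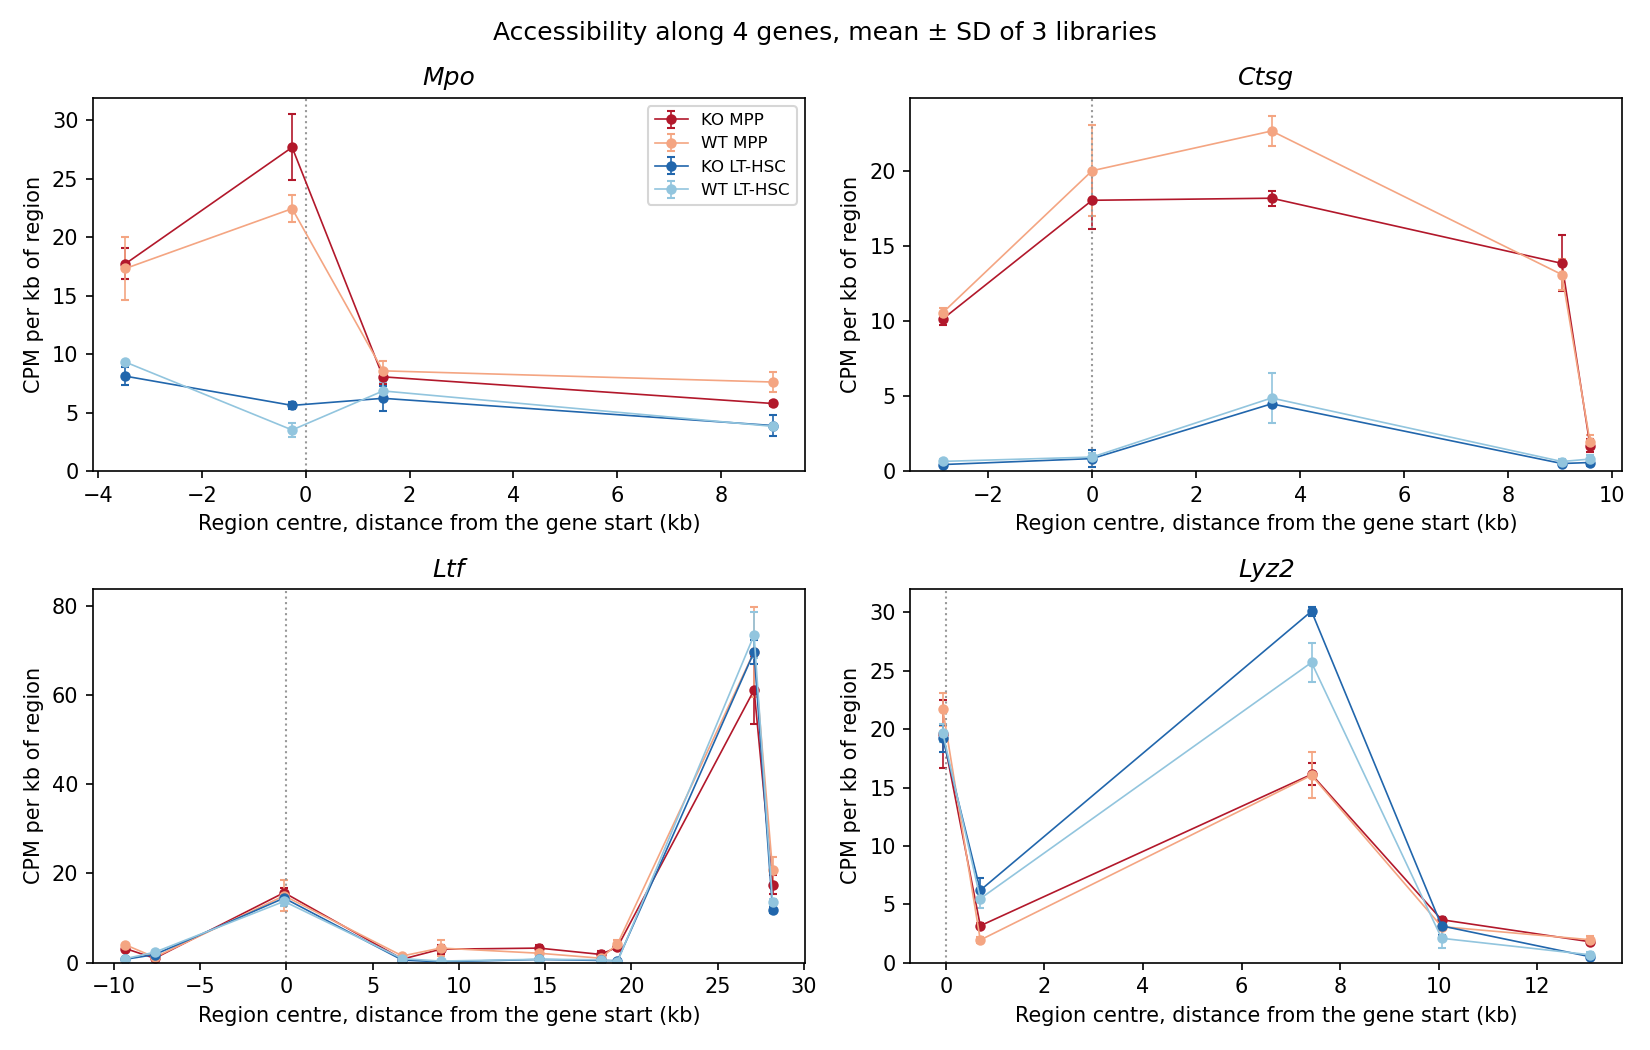
Accessibility (CPM per kb of region, mean ± SD of 3 libraries) against the distance of each region's centre from the gene start (kb) for Mpo, Ctsg, Ltf and Lyz2 in KO MPP, WT MPP, KO LT-HSC and WT LT-HSC. Mpo and Ctsg are higher in MPP at the start, while the start regions of Ltf (13.7 to 15.7 CPM per kb in the 4 groups) and Lyz2 (19.2 to 21.7) lie together.

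Elane and Prtn3 are neighbours on chromosome 10 and both encode proteases of primary granules, but their regions did not move alike. Elane region 2, over the start (chr10:79886009-79886449), held 2.81, 3.46 and 3.29 CPM in KO MPP, against 1.07, 0.814 and 1.43 CPM in KO LT-HSC. WT MPP held 3.31, 4.50 and 2.54 CPM, against 1.15, 1.07 and 0.926 CPM in WT LT-HSC. The groups did not overlap, and the log2 fold change was 1.56 ± 0.21 in KO and 1.74 ± 0.20 in WT. Elane region 1, 1.47 kb upstream and the strongest of the gene by CPM, held 9.24, 8.71 and 10.5 CPM in KO MPP, against 6.41, 5.94 and 5.43 CPM in KO LT-HSC. WT MPP held 9.02, 8.80 and 8.15 CPM, against 6.54, 4.97 and 5.91 CPM in WT LT-HSC. The populations were again apart in every library, by 0.67 ± 0.11 and 0.58 ± 0.11.

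No region covered the start of Prtn3. Its strongest region (region 1, chr10:79877726-79878278), 1.66 kb upstream, was among the most accessible of the table, with 95.1% of all regions below it by CPM per kb. It held 28.9, 30.9 and 30.5 CPM in KO MPP, against 26.4, 26.3 and 26.6 CPM in KO LT-HSC, and 25.6, 29.7 and 25.2 CPM in WT MPP, against 22.6, 23.6 and 19.3 CPM in WT LT-HSC. These differences were small (0.19 ± 0.08 in KO and 0.30 ± 0.08 in WT), and the KO call was lost without any KO library except MPP 1 (adjusted p up to 0.42 over its alternatives). It was also lost with the loess offset (adjusted p = 0.0645). Prtn3 region 3, in the gene body, was lower in WT MPP (-0.24 ± 0.10, adjusted p = 0.039; range over its alternatives 0.0186 to 0.152, lost without WT LT-HSC 2 or 3 or WT MPP 1 or 3). That call was also lost with DESeq2 (adjusted p = 0.0696), the loess offset (0.106), the filter at 1 CPM (0.0584), the compared groups alone (0.0562) and the gene-end covariate (0.131). The log2 fold change of region 3 in KO was 0.00 ± 0.10. Regions 2 and 4 passed in neither genotype, although region 2 was lower in WT MPP under 5 of its 16 alternatives (adjusted p = 0.0542, with -0.30 ± 0.14).

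Ms4a3, which encodes a membrane-spanning protein and is used in mice as a lineage marker of granulocyte-monocyte progenitors, was higher in MPP at all 4 of its regions in both genotypes. The start region (region 1, chr19:11640692-11641225) held 3.55, 3.28 and 3.61 CPM in KO MPP, against 0.661, 0.601 and 0.401 CPM in KO LT-HSC. It held 3.01, 3.21 and 2.20 CPM in WT MPP, against 0.545, 0.365 and 0.579 CPM in WT LT-HSC. The log2 fold change was 2.60 ± 0.22 in KO and 2.51 ± 0.21 in WT, with no overlap between the populations. Its strongest region, region 3 in the gene body, was already open in LT-HSC and differed by 0.43 ± 0.12 and 0.67 ± 0.12, the KO call being lost with the gene-end covariate. Gene body regions 2 and 4 were higher by 1.89 ± 0.26 and 1.21 ± 0.22 in KO and by 1.64 ± 0.26 and 1.41 ± 0.23 in WT.

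The later-granule genes Camp, Fcnb, Ltf and Ngp were mixed. Camp had a sole region, over its start (chr9:109849405-109849877), with 1.60, 1.78 and 1.46 CPM in KO MPP, against 0.303, 0.601 and 0.579 CPM in KO LT-HSC. In WT MPP it held 1.60, 1.52 and 0.947 CPM, against 0.660, 0.506 and 0.376 CPM in WT LT-HSC. The log2 fold change was 1.75 ± 0.28 in KO and 1.42 ± 0.26 in WT, and the WT call was lost with the gene-end covariate (adjusted p = 0.0611). The Fcnb start (region 7, chr2:28084764-28085230) held 1.25, 1.14 and 1.32 CPM in KO MPP, against 0.330, 0.071 and 0.534 CPM in KO LT-HSC. It held 1.15, 1.001 and 1.015 CPM in WT MPP, against 0.373, 0.253 and 0.261 CPM in WT LT-HSC (2.02 ± 0.34 in KO and 1.83 ± 0.32 in WT). Fcnb encodes ficolin B, a lectin of the complement system.

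Around Fcnb, 8 of 12 regions were higher in MPP in each genotype, most of them outside the gene. Region 5, 12.02 kb upstream, differed by 3.11 ± 0.27 in KO and 2.28 ± 0.23 in WT, and region 8, 8.85 kb downstream of the start, by 1.77 ± 0.14 and 1.80 ± 0.13. Region 1, 54.02 kb upstream, was lower in MPP (-1.31 ± 0.21 and -0.88 ± 0.20). Region 4, 14.4 kb upstream, was also lower (-1.20 ± 0.41 in KO, lost without KO LT-HSC 1; -0.86 ± 0.36 in WT, lost without any WT library except MPP 3 and with DESeq2), and both calls were lost with the gene-end covariate (-0.68 in KO, adjusted p = 0.432; -0.34 in WT, adjusted p = 0.69). Region 12 was lower in KO alone by its call (-0.79 ± 0.27, lost without KO LT-HSC 1 and with the gene-end covariate), and its log2 fold change in WT was -0.32 ± 0.28. The strongest Fcnb region, region 6 at 7.4 kb upstream, held 14.7, 13.6 and 12.5 CPM in KO MPP, against 12.1, 10.1 and 11.1 CPM in KO LT-HSC. WT MPP held 16.4, 20.8 and 14.4 CPM there, against 11.5, 15.2 and 11.1 CPM in WT LT-HSC. The differences were 0.28 ± 0.12 and 0.46 ± 0.11. The KO call was lost with limma-voom (adjusted p = 0.0512) and without KO MPP 1 or 2 or KO LT-HSC 2 or 3. With the gene-end covariate the sign of the KO value turned to -0.10. With that covariate the WT value was 0.08 ± 0.18 and its call was lost too (adjusted p = 0.75). Among the higher calls, region 2 was lost without KO MPP 1, KO LT-HSC 1 or 3 or WT MPP 1, and region 10 without KO MPP 1, KO LT-HSC 1 or 3, WT MPP 3 or WT LT-HSC 2. Region 10 in KO was also lost with the loess offset (adjusted p = 0.0632).

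Ltf differed from these genes in that its start was open in stem cells. The start region (region 3, chr9:111018909-111019386) held 7.49, 7.06 and 7.95 CPM in KO MPP, against 6.88, 6.47 and 7.39 CPM in KO LT-HSC. It held 6.94, 5.63 and 8.93 CPM in WT MPP, against 6.08, 6.55 and 7.06 CPM in WT LT-HSC. The groups overlapped, and the log2 fold change was 0.12 (95% interval -0.13 to 0.36) in KO and 0.11 (-0.13 to 0.35) in WT. The strongest region of all 48 by CPM per kb, Ltf region 9 at 27.1 kb downstream of the start, held 28.2, 26.9 and 22.0 CPM in KO MPP, against 30.6, 28.8 and 28.5 CPM in KO LT-HSC. It held 29.1, 33.6 and 25.2 CPM in WT MPP, against 29.6, 33.4 and 29.6 CPM in WT LT-HSC. It was open in all 12 libraries and passed in neither genotype (-0.19 ± 0.09 and -0.07 ± 0.09), but it passed as lower in KO MPP under 9 of 16 alternatives.

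Inside the Ltf gene body lay regions with few reads in LT-HSC. Ltf region 5, 8.93 kb into the gene (chr9:111028011-111028431), held 1.26 ± 0.429 CPM in KO MPP and 0.0751 ± 0.033 CPM in KO LT-HSC, and 1.37 ± 0.776 CPM in WT MPP and 0.143 ± 0.0501 CPM in WT LT-HSC. The LT-HSC values stood on 4, 2 and 1 reads in KO and on 7, 4 and 4 reads in WT, so the log2 fold changes of 3.87 (95% interval 2.87 to 4.88) and 3.29 (2.48 to 4.10) are wide. Ltf region 8, 19.2 kb into the gene (chr9:111038243-111038716), differed by 2.995 ± 0.30 in KO and 4.17 ± 0.32 in WT. Ltf region 6 was higher by 2.18 ± 0.31 and 1.53 ± 0.30. Region 7 was higher in KO alone by its call (2.02 ± 0.46, and 2.63 without KO LT-HSC 2), and its log2 fold change in WT was 0.58 ± 0.45. Both flanks of the gene also held regions higher in MPP, region 1 at 9.34 kb upstream (2.11 ± 0.29 and 2.15 ± 0.26) and region 10 at 28.18 kb downstream of the start (0.55 ± 0.12 and 0.60 ± 0.11). Region 2, 7.64 kb upstream, was lower in MPP (-0.84 ± 0.29 in KO, lost without KO LT-HSC 3 or KO MPP 2; -0.96 ± 0.25 in WT), and both calls were lost with the gene-end covariate (adjusted p = 0.234 in KO and 0.149 in WT).

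Ngp ran the other way, while Lyz2 had some regions higher and some lower in MPP. Ngp, a mouse gene for a granule protein related to cystatins and cathelicidins, had a sole region 2.82 kb upstream (chr9:110416773-110417212) and none over its start. That region held 0.507, 0.543 and 0.485 CPM in KO MPP, against 3.41, 2.41 and 2.05 CPM in KO LT-HSC. It held 0.677, 0.917 and 0.643 CPM in WT MPP, against 2.70, 2.39 and 2.20 CPM in WT LT-HSC. Every MPP library lay below every LT-HSC library (-2.38 ± 0.23 in KO and -1.67 ± 0.21 in WT).

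Lyz2 encodes lysozyme M, a bacterial wall hydrolase of neutrophils and macrophages. Its start region (region 1, chr10:117282111-117282548) held 9.08, 9.53 and 7.12 CPM in KO MPP, against 7.98, 8.99 and 8.28 CPM in KO LT-HSC, and 9.07, 9.21 and 10.2 CPM in WT MPP, against 8.60, 8.29 and 8.95 CPM in WT LT-HSC. The log2 fold change was 0.03 (95% interval -0.18 to 0.24) in KO and 0.14 (-0.06 to 0.34) in WT. Region 3, 7.42 kb downstream of the start and the strongest Lyz2 region, held 6.74, 7.58 and 7.06 CPM in KO MPP, against 13.2, 13.3 and 13.5 CPM in KO LT-HSC, and 6.29, 8.03 and 6.97 CPM in WT MPP, against 11.8, 11.7 and 10.5 CPM in WT LT-HSC. It was lower in MPP by -0.89 ± 0.10 and -0.67 ± 0.10, and gene body region 2 by -0.99 ± 0.18 and -1.48 ± 0.19. Region 5, 13.1 kb downstream, was higher (1.87 ± 0.37 and 1.54 ± 0.32). Region 4 was higher in WT alone by its call (0.58 ± 0.25), which was lost without WT MPP 1 or 2 or WT LT-HSC 2 or 3, and its log2 fold change in KO was 0.25 ± 0.24. The WT call was also lost with DESeq2 (adjusted p = 0.0675), the compared groups alone (0.0563) and the gene-end covariate (0.524). The promoters of Lyz2 and its neighbour Lyz1 were 81.9% identical. Whether reads were split between the copies was not tested, so Lyz2 values near the start are uncertain to that extent.

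**Figure D2:**
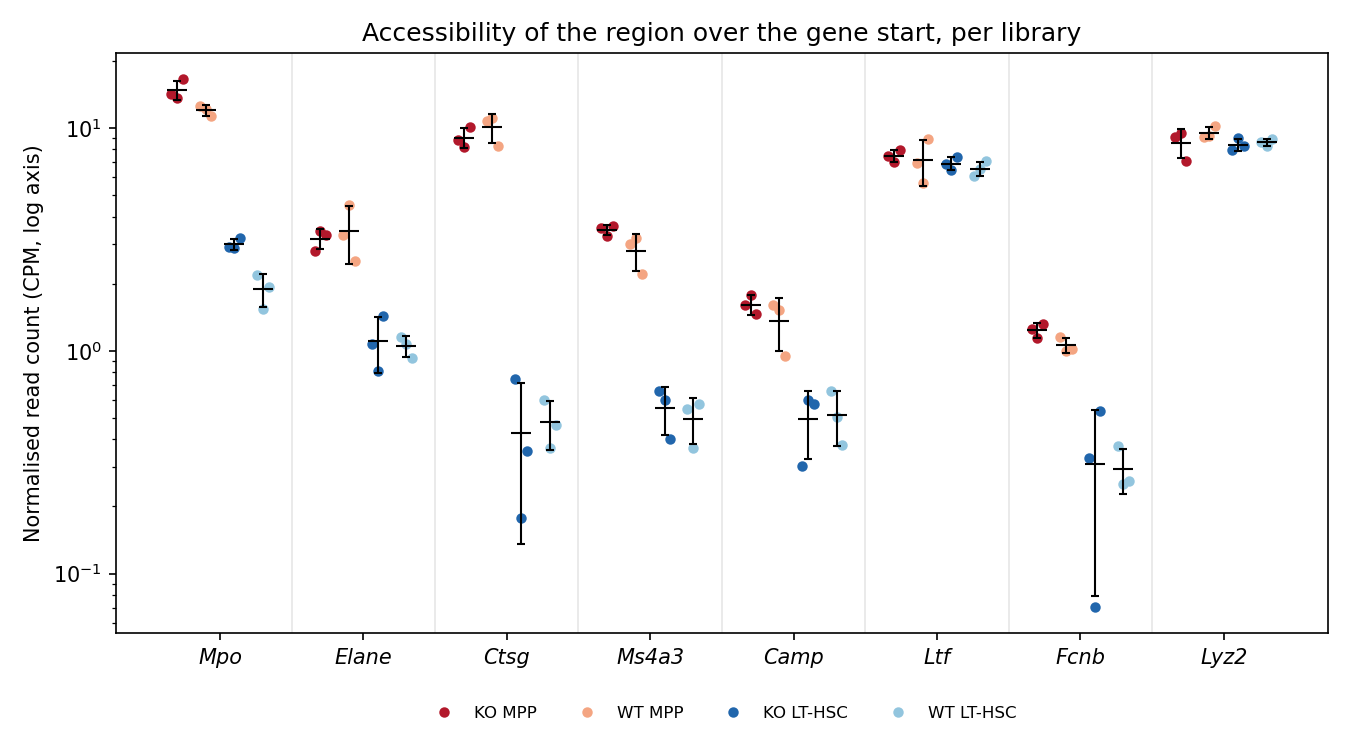
Normalised read count (CPM, log axis) of the region over the gene start in each library of KO MPP, WT MPP, KO LT-HSC and WT LT-HSC for the 8 genes with such a region. Points are libraries and bars are mean ± SD (n = 3). Mpo, Elane, Ctsg, Ms4a3, Camp and Fcnb lie higher in MPP, and Ltf and Lyz2 lie together.

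Over the 8 start regions, 6 were higher in MPP and none lower in either genotype, with a median log2 fold change of 1.89 in KO and 1.79 in WT. Of the 13 upstream regions 9 were higher and 4 lower in each genotype. Of the 14 downstream regions 8 were higher and 2 lower in KO, and 9 and 1 in WT. Of 13 gene body regions 9 were higher and 1 lower in KO, and 8 and 2 in WT. Over all regions of any place 33.3% were higher and 34.4% lower in KO, and 34.6% and 35.2% in WT. Shares over all regions of the same place were not computed. Whether the counts by place are particular to these genes was therefore not tested. Per kb, the start regions in KO MPP ran from Mpo (27.7 ± 2.83 CPM per kb) through Lyz2 (19.6 ± 2.93), Ctsg (18.1 ± 1.89), Ltf (15.7 ± 0.933), Elane (7.22 ± 0.764), Ms4a3 (6.52 ± 0.326) and Camp (3.41 ± 0.341) to Fcnb (2.64 ± 0.1998). In this order Lyz2 and Ctsg, Ctsg and Ltf, and Elane and Ms4a3 differed by less than the sum of their SDs. In KO LT-HSC the order was Lyz2 (19.2 ± 1.18), Ltf (14.5 ± 0.963), Mpo (5.63 ± 0.322) and Elane (2.50 ± 0.696), followed by Camp, Ms4a3, Ctsg and Fcnb at 1.05, 1.04, 0.849 and 0.668 CPM per kb, neighbours that differed by less than the sum of their SDs. The median region of all 188262 stood at 3.55 CPM per kb over the 12 libraries and that of the 48 regions at 3.89, with 22 of the 48 below the median of all.

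**Figure D3:**
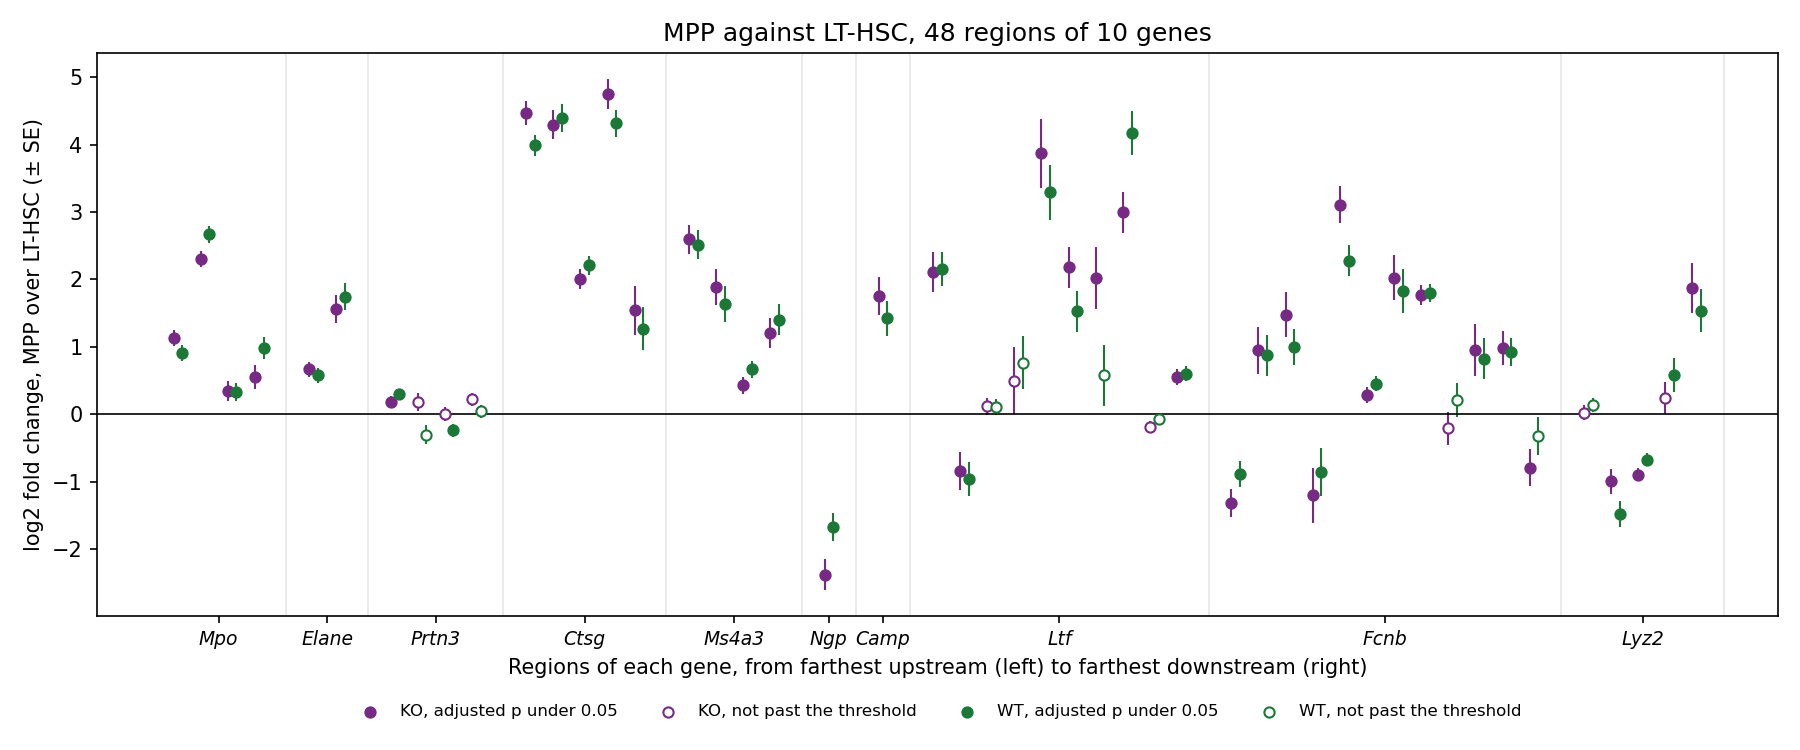
The log2 fold change (± SE) of MPP over LT-HSC for the 48 regions, ordered along each gene, in KO and in WT. Filled points have an adjusted p under 0.05. All regions of Mpo, Elane, Ctsg and Ms4a3 lie above 0 in both genotypes, Prtn3 lies near 0, and the Ngp region lies lowest.

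Summed over all regions of a gene, 8 of the 10 genes were higher in KO MPP than in KO LT-HSC and 2, Ngp and Lyz2, were lower. In WT 7 were higher and the same 2 lower. Over 18495 genes, 72.6% passed in KO (37.8% higher and 34.9% lower) and 73.5% in WT (36.7% higher and 36.9% lower). Ctsg sums were 33.5 ± 2.48 CPM in KO MPP and 3.41 ± 0.301 CPM in KO LT-HSC, and 37.2 ± 1.24 CPM in WT MPP and 4.16 ± 0.945 CPM in WT LT-HSC (3.28 ± 0.11 and 3.17 ± 0.10). Mpo differed by 1.36 ± 0.07 and 1.26 ± 0.07, Ms4a3 by 1.06 ± 0.09 and 1.16 ± 0.09, and Elane by 0.85 ± 0.10 and 0.79 ± 0.10. The sums of Ltf (0.15 ± 0.05 and 0.17 ± 0.05) and Prtn3 (0.17 ± 0.05 in KO, and 0.07 ± 0.05 in WT with adjusted p = 0.253) moved least, and each sum held a region open in all 12 libraries. The KO call of Ltf was lost without KO MPP 1 (adjusted p = 0.0591) and that of Prtn3 without KO MPP 3 (adjusted p = 0.0637).

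**Figure D4:**
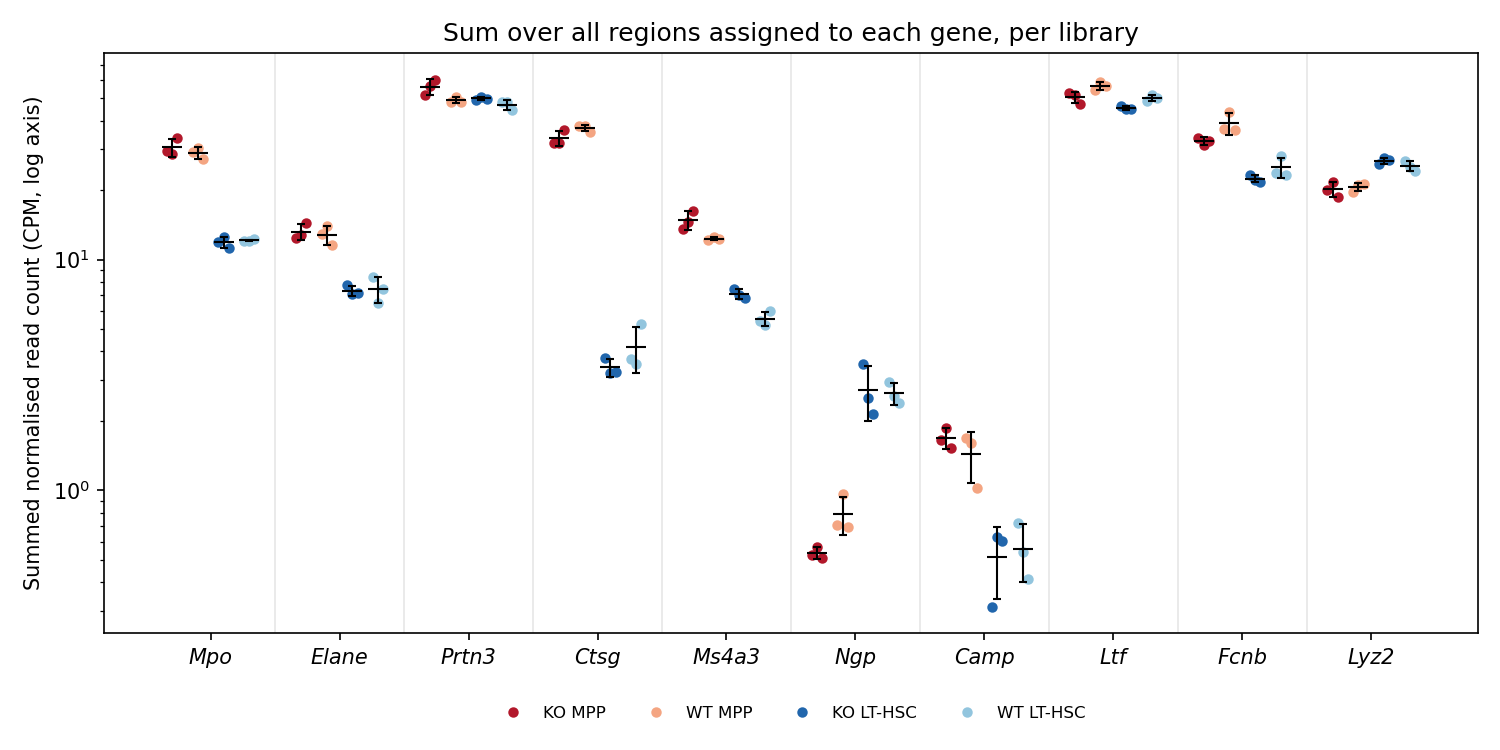
Normalised read count summed over all regions of each gene (CPM, log axis) in each library of KO MPP, WT MPP, KO LT-HSC and WT LT-HSC. Points are libraries and bars are mean ± SD (n = 3). Ctsg shows the widest gap between MPP and LT-HSC, and Ngp and Lyz2 lie lower in MPP.

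Other granule genes, taken from lists of further contents, were also mostly higher in MPP by summed counts. Of 12 further primary granule genes 10 were higher and 1 lower in each genotype, with a median log2 fold change of 0.38 in KO and 0.22 in WT, against 0.02 and 0.00 over all genes. They included Cst7, cystatin F (1.74 ± 0.08 in KO and 1.46 ± 0.08 in WT), and Prss57, a serine protease of the same granules (1.14 ± 0.06 and 1.21 ± 0.05), while Cd63, a granule membrane tetraspanin, was lower (-0.18 ± 0.05 and -0.26 ± 0.05). Of 19 further secondary and tertiary granule genes 13 were higher and 3 lower in each genotype (medians 0.55 and 0.52). Mmp8, neutrophil collagenase, was higher by 1.74 ± 0.09 and 1.81 ± 0.09, and Hp, haptoglobin, by 2.99 ± 0.20 and 2.58 ± 0.19. Olfm4, olfactomedin 4 (-0.85 ± 0.14 in KO and -0.67 ± 0.12 in WT), and Cd177, a surface glycoprotein (-0.49 and -0.41), were lower. Of 13 regulator genes, 11 were higher and none lower in KO, and 10 were higher and 1, Cebpe (-0.18 ± 0.04), lower in WT. Gfi1, a repressor needed for granulocytes (0.92 ± 0.05 and 0.89 ± 0.05), and Cebpa (0.61 ± 0.03 and 0.52 ± 0.03) had the lowest p in KO.

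Markers of several other cell types and the share of counts at gene ends moved with the same comparison. Mature neutrophil markers (S100a8, S100a9, Mmp9, Retnlg, Cxcr2 and Ly6g) summed to 6.81 to 7.01 CPM per kb in KO MPP and 6.93 to 7.18 in WT MPP, against 4.94 to 5.14 in KO LT-HSC and 5.40 to 5.60 in WT LT-HSC. Of these 6 genes 4 were higher and 1 lower in MPP in each genotype, and none was at 0 in a group mean, the lowest being Ly6g at 2.08 CPM in KO MPP. Monocyte and macrophage markers ran from 8.18 to 8.57 CPM per kb in KO MPP and 8.50 to 9.38 in WT MPP, against 5.64 to 6.08 in KO LT-HSC and 6.16 to 6.47 in WT LT-HSC (3 of 6 higher, none lower, in each genotype). Granulocyte-monocyte progenitor markers summed to 12.62 to 13.79 CPM per kb in KO MPP and 12.18 to 12.7 in WT MPP, against 9.36 to 9.83 in KO LT-HSC and 9.43 to 9.45 in WT LT-HSC (5 of 6 genes higher in each genotype, and Cebpe lower in WT). This list shares genes with the regulators above, among them Cebpa, Cebpe and Gfi1. The mature neutrophil list likewise shares S100a9 and Retnlg with the further secondary and tertiary granule genes. Basophil, eosinophil and mast cell markers summed to 5.80 to 6.28 in KO MPP and 4.97 to 5.06 in WT MPP, against 4.12 to 4.22 in KO LT-HSC and 3.60 to 3.92 in WT LT-HSC. Those of T and NK cells summed to 3.81 to 3.91 in KO MPP and 3.74 to 4.17 in WT MPP, against 2.06 to 2.16 in KO LT-HSC and 2.14 to 2.401 in WT LT-HSC, with 5 of 5 tested genes higher in each genotype. These lists were thus higher in every MPP library, but the B cell and erythroid lists were not. B cell markers summed to 4.025 to 4.17 in KO MPP and 4.22 to 4.27 in WT MPP, against 4.38 to 4.54 in KO LT-HSC and 4.27 to 4.42 in WT LT-HSC (3 genes higher and 2 lower in KO, 3 and 1 in WT). Erythroid markers summed to 9.83 to 10.2 in KO MPP and 8.45 to 8.97 in WT MPP, against 9.42 to 9.92 in KO LT-HSC and 8.73 to 9.26 in WT LT-HSC (4 higher and 1 lower in KO, 2 and 2 in WT). Regions within 1 kb of a gene end took 41.0% to 41.4% of counts in KO MPP and 39.2% to 41.0% in WT MPP, against 39.2% to 39.6% in KO LT-HSC and 37.8% to 38.9% in WT LT-HSC. The part of these values in the results was not tested. A fit that had the share at gene ends as a covariate ended 7 of the 39 calls in KO and 10 of the 39 in WT. In KO these were Mpo 3, Prtn3 1, Ms4a3 3, Ltf 2 and Fcnb 2, 4 and 12. In WT they were Mpo 3, Prtn3 1 and 3, Camp 1, Ltf 2, Fcnb 2, 3, 4 and 6, and Lyz2 4. Within each genotype the share was higher in every MPP library than in every LT-HSC library. That fit therefore cannot tell the share and the population apart, and the same holds for KO against WT in LT-HSC. Its errors were also wider. Fcnb region 2 in KO went from 0.95 ± 0.35 to 0.81 ± 0.56, and Mpo region 3 in KO from 0.35 ± 0.14 to 0.07 ± 0.24.

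Few of the 48 regions differed between KO and WT, a share near that over the whole table. In MPP 3 regions were higher and 1 lower in KO (8.33% of 48), and 8.71% of all tested regions passed in that comparison (5.12% higher and 3.59% lower). In LT-HSC 3 were higher and none lower in KO (6.25%), and 4.74% of all passed (3.27% higher and 1.47% lower). At an unadjusted p under 0.05 there were 16 regions in MPP (33.3%, against 24.1% of all regions) and 11 in LT-HSC (22.9%, against 20% of all). The count in MPP was 1 without KO MPP 2, WT MPP 1 or WT MPP 2 and 0 without KO MPP 3. That in LT-HSC was 1 without KO LT-HSC 1 or 2 or WT LT-HSC 1 or 2. The sign of the log2 fold change was the same in both populations for 37 of 48 regions (77.1%), and for 67.4% of all regions. The median of the 48 regions was -0.08 in MPP and -0.05 in LT-HSC, against -0.01 and 0.00 over all.

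The Mpo start was the one region called in both populations, higher in KO in each. That is 2.08% of the 48, a share near the 1.48% of all regions that were higher in both. None of the 48 was lower in both, against 0.449% of all regions. Mpo region 2 held 14.2, 13.6 and 16.5 CPM in KO MPP, against 12.5, 12.1 and 11.3 CPM in WT MPP, and 2.92, 2.90 and 3.21 CPM in KO LT-HSC, against 2.18, 1.54 and 1.94 CPM in WT LT-HSC. In both populations all 3 KO libraries lay above all 3 WT libraries. The log2 fold change was 0.30 ± 0.10 in MPP (adjusted p = 0.0453) and 0.67 ± 0.15 in LT-HSC (adjusted p = 0.00831). The LT-HSC call was lost without WT LT-HSC 2 (0.54 ± 0.16, adjusted p = 0.0563) and with the gene-end covariate (adjusted p = 0.0694; range over its alternatives 0.00358 to 0.0694). The MPP call was lost without any 1 of the 6 MPP libraries (adjusted p from 0.0587 without KO MPP 2 to 0.281 without KO MPP 3). It was lost under 11 of its 16 alternatives in all, the others being DESeq2 (adjusted p = 0.0539), total counts alone (0.0734), the loess offset (0.0751), the filter at 1 CPM (0.0521) and the gene-end covariate (0.28). The other Mpo regions passed in neither population, and the summed counts of Mpo differed by 0.08 ± 0.06 in MPP and -0.02 ± 0.08 in LT-HSC.

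**Figure D5:**
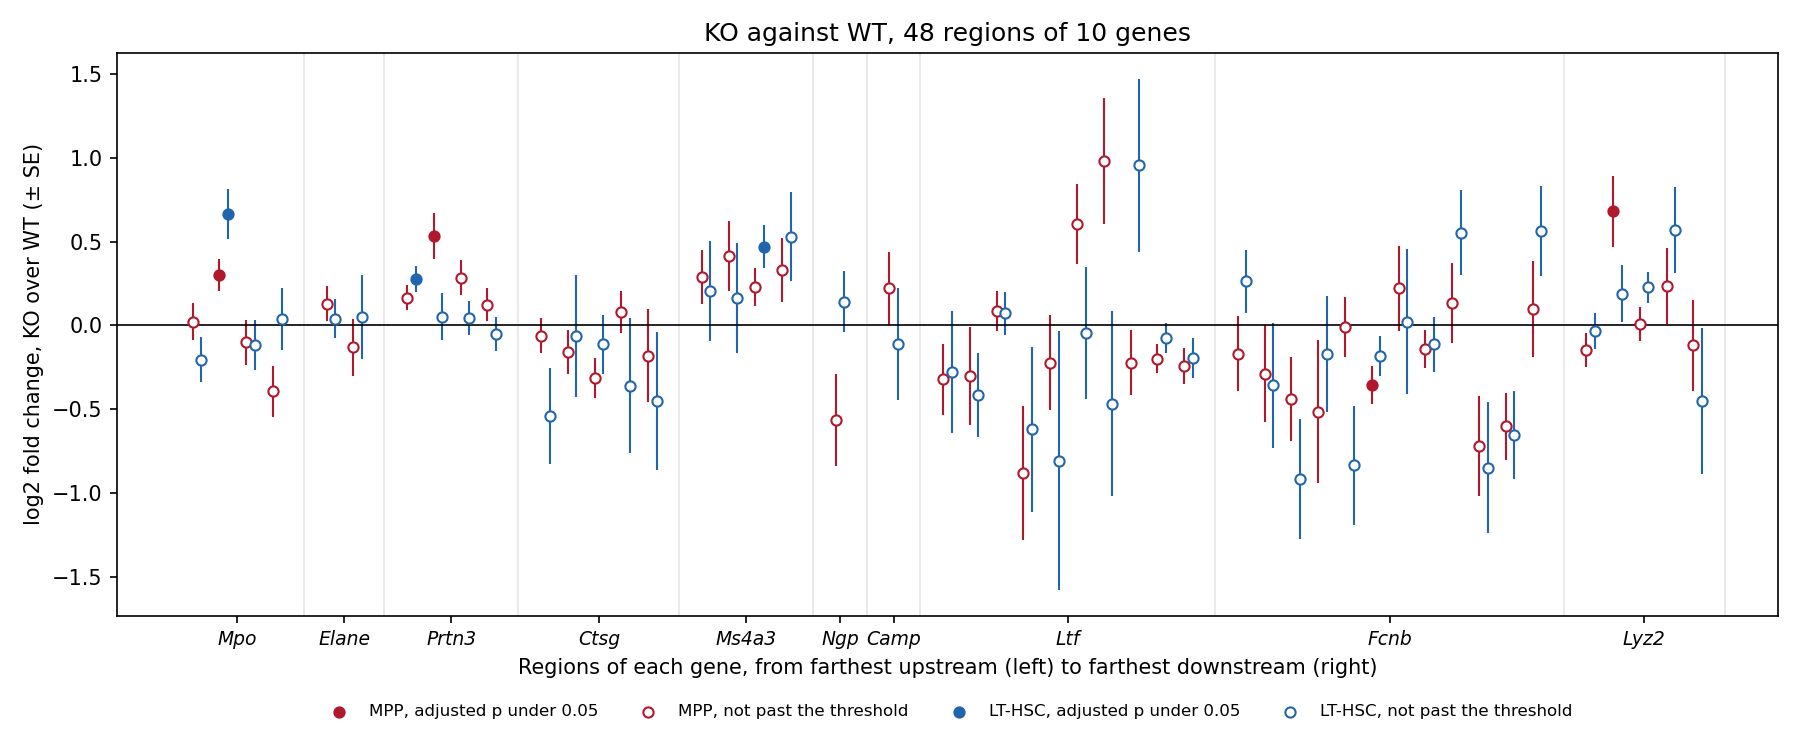
The log2 fold change (± SE) of KO over WT for the 48 regions, ordered along each gene, in MPP and in LT-HSC. Filled points have an adjusted p under 0.05. The medians are -0.08 in MPP and -0.05 in LT-HSC. The Mpo start region is the one that is filled in both populations (2.08% of the 48, against 1.48% of all regions higher in both).

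At Prtn3 a different region was called in each population, and at Ms4a3 a region was called in LT-HSC alone. Prtn3 region 2, in the gene body (chr10:79880705-79881149), held 5.22, 5.83 and 7.44 CPM in KO MPP, against 4.86, 3.61 and 4.50 CPM in WT MPP (0.53 ± 0.14, adjusted p = 0.0132; range over its alternatives 0.00844 to 0.157, lost without KO MPP 3, without WT MPP 2 and with the gene-end covariate). In LT-HSC that region differed by 0.05 ± 0.14. Prtn3 region 1 held 26.4, 26.3 and 26.6 CPM in KO LT-HSC, against 22.6, 23.6 and 19.3 CPM in WT LT-HSC (0.27 ± 0.08, adjusted p = 0.0353; range 0.0162 to 0.21, lost without any LT-HSC library except WT 2, and with total counts alone, the loess offset, the filter at 1 CPM and the gene-end covariate), and differed by 0.16 ± 0.07 in MPP (adjusted p = 0.172). Ms4a3 region 3 (chr19:11635578-11636026) held 5.20, 4.88 and 3.88 CPM in KO LT-HSC, against 3.15, 3.40 and 3.65 CPM in WT LT-HSC (0.47 ± 0.13, adjusted p = 0.0305; range 0.0187 to 0.237, lost without KO LT-HSC 1 or 2 or WT LT-HSC 1 or 2, and with total counts alone, the loess offset, the compared groups alone and the gene-end covariate). It held 5.96, 6.52 and 6.47 CPM in KO MPP, against 5.81, 5.11 and 5.31 CPM in WT MPP (0.23 ± 0.11, adjusted p = 0.216). All 4 Ms4a3 regions had a positive log2 fold change in both populations, from 0.23 to 0.41 in MPP and from 0.16 to 0.53 in LT-HSC.

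The remaining calls were in MPP, 1 higher and 1 lower. Lyz2 region 2 (chr10:117281360-117281779) held 1.40, 1.33 and 1.24 CPM in KO MPP, against 0.777, 0.917 and 0.744 CPM in WT MPP (0.68 ± 0.21, adjusted p = 0.0393; range 0.0234 to 0.204, lost without any 1 of the 6 MPP libraries and with DESeq2, limma-voom and the gene-end covariate). Fcnb region 6 held 14.7, 13.6 and 12.5 CPM in KO MPP, against 16.4, 20.8 and 14.4 CPM in WT MPP, and the groups overlapped (-0.36 ± 0.11, adjusted p = 0.0426; range 0.0102 to 0.325). Its value without WT MPP 2 was -0.19 ± 0.11, and the call was also lost without WT MPP 1 or KO MPP 2 or 3 and with DESeq2. At the start regions other than that of Mpo, the log2 fold change of KO over WT ran from -0.16 to 0.29 in MPP and from -0.11 to 0.20 in LT-HSC, and none passed. Fcnb region 11 (-0.60 ± 0.20, adjusted p = 0.0568), Ctsg region 3 (-0.31 ± 0.12, adjusted p = 0.0883) and Ltf region 7 (0.98 ± 0.38, adjusted p = 0.0983) did not pass in MPP, but each did under some alternatives.

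By summed counts, 4 of the 10 genes passed in MPP, where 27.9% of all genes did (14.6% higher and 13.3% lower), and 1 in LT-HSC, where 16.2% did (7.67% higher and 8.5% lower). Ms4a3 was higher in KO in both, with 13.6, 14.6 and 16.3 CPM in KO MPP, against 12.2, 12.5 and 12.3 CPM in WT MPP (0.27 ± 0.08, adjusted p = 0.0162), and 7.48, 7.03 and 6.81 CPM in KO LT-HSC, against 5.42, 5.20 and 5.97 CPM in WT LT-HSC (0.37 ± 0.10, adjusted p = 0.0155). The groups did not overlap, but the MPP call was lost without KO MPP 3 (adjusted p = 0.126) and the LT-HSC call without KO LT-HSC 1 (adjusted p = 0.0727) or WT LT-HSC 2 (adjusted p = 0.0619). Prtn3 was higher in KO MPP (0.19 ± 0.05, adjusted p = 0.00816; 0.14 ± 0.05 and adjusted p = 0.0761 without KO MPP 3). Fcnb (-0.26 ± 0.07, adjusted p = 0.00899) and Ltf (-0.17 ± 0.05, adjusted p = 0.0132) were lower in KO MPP, each in the sums of all 3 libraries. Both sums lean on a strong region outside the gene. Fcnb region 6 held 13.6 CPM in KO MPP and 17.2 in WT MPP, where the sums were 32.6 and 38.9. Ltf region 9 held 25.7 and 29.3, where the sums were 50.5 and 56.6. Of the 12 Fcnb regions 1 passed, with 9 values below 0 and 3 above. None of the 10 Ltf regions passed, with 7 below 0 and 3 above (-0.88 to 0.98). The summed Fcnb value was -0.17 ± 0.07 without WT MPP 2 (adjusted p = 0.0826), and that call was lost without KO MPP 2 too (adjusted p = 0.0519). The Ltf call was lost without WT MPP 2 (adjusted p = 0.0746) and without KO MPP 3 (adjusted p = 0.104). The other 6 genes passed in neither population.

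The test of whether the genotype difference itself differed between MPP and LT-HSC passed at none of the 48 regions and none of the 10 gene sums. At an unadjusted p under 0.05 there were 6 regions (Mpo 2, Prtn3 2, Ngp 1, Ltf 7, Ltf 8 and Fcnb 5), 12.5% of the 48 against 7.56% of all regions, and 0 gene sums, against 10.6% of all genes. DESeq2 and limma-voom also called none. Among all tested, 0.00805% of regions and 0.0216% of genes passed. The interaction was -0.36 ± 0.18 at Mpo region 2 (adjusted p = 0.659) and 0.48 ± 0.19 at Prtn3 region 2 (adjusted p = 0.583). The calls in 1 population therefore do not show that the populations differ.

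In the wider lists, the genotype comparison ran in both directions by summed counts. Over all genes 14.6% were higher and 13.3% lower in KO MPP, and 7.67% were higher and 8.5% lower in KO LT-HSC. Of 12 further primary granule genes 5 were higher and 2 lower in KO MPP, and none was higher and 2 lower in KO LT-HSC. Bpi, the bactericidal permeability-increasing protein gene, was lower in both (-0.17 ± 0.06 and -0.28 ± 0.06), and Gusb, a lysosomal glucuronidase gene, was higher in KO MPP (0.20 ± 0.04). Of 19 further secondary and tertiary granule genes 3 were higher and 4 lower in KO MPP, and 1 higher and 5 lower in KO LT-HSC. On that list S100a9, a calprotectin subunit gene and also a mature neutrophil marker here, was lower in both (-0.34 ± 0.06 and -0.22 ± 0.07). Retnlg was higher in KO MPP (0.41 ± 0.09), and Pglyrp1, a peptidoglycan-binding protein gene, was lower in KO LT-HSC (-0.44 ± 0.10). Whether the protein of each listed gene lies in granules was not tested. Of 13 regulator genes 5 (Myb, Cux1, Cebpe, Cebpd and Runx1) were higher in KO MPP, by 0.09 to 0.23, and none lower. None passed in KO LT-HSC, where 1 (7.69%) had an unadjusted p under 0.05, against 31.1% of all genes. Beside these values, mature neutrophil markers summed lower in KO LT-HSC than in WT LT-HSC (the ranges above), with 4 of 6 genes called lower and none higher, and in KO MPP 1 was higher and 2 lower. That list shares genes with the further secondary and tertiary granule genes, among them S100a9 and Retnlg, so their counts are not separate.

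Other genes followed the same profile over the 12 libraries. The genes whose summed log2 CPM correlated most with the mean of the 10 were Cd5l (Pearson r = 0.998), Cyfip2 (0.997), Gm40353 (0.996), Kdm5a (0.996) and Adipoq (0.996). The libraries fall into 2 populations, and 18.3% of 18485 genes had r above 0.9, so a high value marks little more than a difference between MPP and LT-HSC.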

How the data were processed

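The libraries were 3 per group, and the authors deposited raw read counts per accessible region for each sample, which are whole numbers with no normalization. Per the submitters' processing notes, the tools were MACS2 2.1.1, DESeq2 1.22.1, cutadapt, featureCounts and Bowtie2, with the build GRCm38, and no order or settings are stated there. The counts of 188262 regions were fitted with edgeR 4.0.16 (R 4.3.3) with TMM factors, its expression-based filter (186373 regions kept) and a quasi-likelihood F test over 12 libraries with a mean per group. P-values were Benjamini-Hochberg adjusted over all regions tested, with a threshold of 0.05. A second fit used counts summed over each of 18495 genes. An SE is the log2 fold change over the square root of F. Of all regions, 91.64% lay in or within 100 kb of a gene body. The biological coefficient of variation was 8.18%, and counts carry counting error besides. The p-values measure the spread between these libraries.

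Same-numbered KO and WT libraries come from different mice and correlated between -0.0367 and 0.033 in their deviations from the group means. They were not treated as pairs. Same-numbered MPP and LT-HSC libraries of a genotype correlated between 0.0536 and 0.114. The labels do not state such pairs, and the main fit left them out. The code was tested on simulated data. The alternatives used DESeq2 1.42.0 and limma-voom (limma 3.58.1), other scalings and filters, and fits that left out a library. Named values cover, for each gene, its region of highest mean CPM and the region nearest its start, each region called between KO and WT, and up to 4 regions of lowest p between the populations. From other lists, up to 4 genes of lowest p in a comparison could be named, and further regions and genes, such as those moving against their list, were chosen after their values were seen. The members and lists were chosen with earlier results of these data known.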

Additional observations from a re-analysis of the deposited data

How the results depend on the processing

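The regions called between KO and WT in LT-HSC numbered 3, against 1 with total counts alone or a loess offset, 0 with the share at gene ends as a covariate and 1 at an adjusted p under 0.01, and 1 to 2 when a library was left out. In MPP they numbered 4, against 1 with DESeq2 or the gene-end covariate and 0 at an adjusted p under 0.01, and 0 to 3 when a library was left out. Gene sums called in LT-HSC numbered 1, against 2 with total counts alone, within 10 kb or with a replicate block, 0 at an adjusted p under 0.01, and 0 to 1 when a library was left out. In MPP they numbered 4, against 2 at an adjusted p under 0.01, and 1 to 4 when a library was left out. The counts of regions and gene sums called between MPP and LT-HSC, and of interactions, stayed within 1.5 times under every alternative run. Fcnb region 6 in KO MPP against KO LT-HSC turned from 0.28 to -0.10 with the gene-end covariate. The causes were not tested. Of single values under the alternatives, 4296 kept their direction and their side of the threshold, 129 lost a call, 37 gained one and 157 changed sign with no call in either fit. These values include comparisons with no call to lose. Between KO and WT, 0 of 3 region calls in LT-HSC and 0 of 4 in MPP held under every alternative fit. The same was true of 0 of 1 and 0 of 4 gene sums. Between MPP and LT-HSC, 30 of 39 region calls held in KO and 28 of 39 in WT. With a replicate block the other counts of calls stayed within 1.5 times. That block put KO and WT libraries of the same number together, although they come from different mice. It is therefore not a test of pairs of MPP and LT-HSC from the same mouse, which was not run. All 12 libraries correlated best with the library of their own number in the other population (0.0536 to 0.114), a hint from the data and not the design. Regions under 1 CPM, such as those inside Ltf in LT-HSC, are limited by depth.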
